A study of Mus musculus with 6 samples.

Results

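The Notch pathway genes described here are 10 rows of the deposited expression table, chosen by gene name from its 21995 rows: the ligands Dll1, Dll4 and Jag1, the receptors Notch1, Notch2 and Notch3, the nuclear partner Rbpj, and the transcriptional targets Hes1, Hes5 and Hey1. Expression was measured by RNA-seq in whole mouse retina at postnatal day 6 (P6), with 3 Lhx4-null and 3 control libraries. The product of Lhx4 is a LIM-homeodomain regulator found in retinal bipolar cells, and the question put to these libraries was which transcripts differ when it is inactivated. In Lhx4-null mice one Lhx4 allele was a tdTomato knock-in and the other was floxed (loxP) and deleted by Six3-Cre, which acts in the developing retina. The label of the other group reads control. Wild-type and Lhx4 loxP/+ mice served as controls for the electroretinograms of the study, and the genotype of the RNA-seq controls is not given in the sources used here. Both groups were on a mixed C57BL/6J; 129S6 background. The retinas of 1 mouse made 1 library, the pigment epithelium was dissected away, and whole retinas were used without any sorting of cells.

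Notch signaling passes between neighbouring cells. A Delta or Jagged ligand on one cell binds a Notch receptor on the next, the receptor is cut by gamma-secretase, and the freed intracellular domain joins RBPJ in the nucleus to switch on repressor genes of the Hes and Hey families. In the developing retina the pathway is known for keeping progenitors undifferentiated, for opposing the proneural bHLH factors, for promoting Müller glia, and, through Dll4 and Jag1, for shaping the growing blood vessels.

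Values are FPKM, the fragments of a gene scaled by its length and by the size of the library; read numbers are not kept, and precision rests on the spread between mice. Lhx4 itself was at 28.2, 28.2 and 25.8 FPKM in the libraries labelled Lhx4-null, against 18.0, 18.1 and 19.3 FPKM in control libraries. The whole-gene level was thus higher in the null-labelled libraries, and as it does not show which allele the transcripts came from, it does not check the genotype (log2 difference 0.56, SE 0.085, adjusted p = 0.336 by limma). Retinal markers were present throughout: those of rods summed to between 1283 and 1830 FPKM in Lhx4-null and between 1210 and 2294 FPKM in control libraries, and the pigment epithelium markers summed to at most 4.04 FPKM in Lhx4-null and 4.64 FPKM in control libraries. In both groups the library numbered 3 stood apart from libraries 1 and 2. Its 7 progenitor markers summed to 257 FPKM in Lhx4-null library 3, with 121 and 117 FPKM in Lhx4-null libraries 1 and 2, and to 277 FPKM in control library 3, with 94.99 and 124 FPKM in control libraries 1 and 2.

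No member of the pathway differed between genotypes beyond the spread between mice. With limma, 0 of the 10 members were called at a Benjamini-Hochberg adjusted p under 0.05, beside 2 of all 13175 genes tested (0.0152%). With the library number as a block, 0 members were called, beside 12 of all genes (0.0911%). At an unadjusted p under 0.05, 0 members were higher and 0 were lower in Lhx4-null retinas, beside 4.09% and 2.72% of all genes. The libraries of the 2 genotypes overlapped for every member, whereas all Lhx4-null libraries lay above all control libraries for 7.88% of genes and below them for 5.53%. The fitted difference was above 0 for 6 members and below 0 for 4, with a median of 0.039 on the log2 scale, against 0.0033 for all genes tested. The smallest adjusted p among the members was 0.782, and 0.557 with the block. In whole retina, fewer cells of a type and less RNA per cell cannot be told apart.

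**Figure D1:**
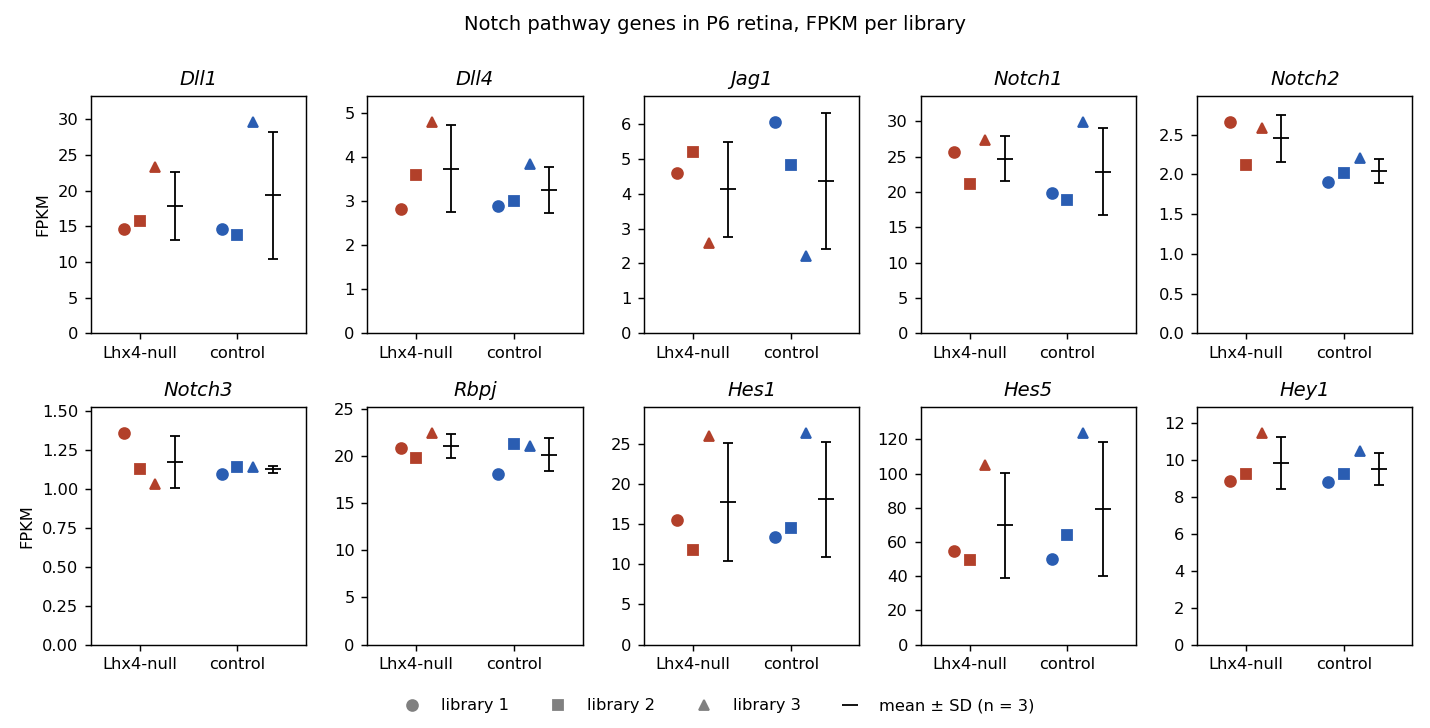
FPKM of the 10 Notch pathway genes in each library, Lhx4-null on the left and control on the right of each panel, with the mean ± SD of 3 libraries as a bar. The genotypes overlap in every panel, and the triangles (library 3) are the highest points of both genotypes for Dll1, Dll4, Notch1, Hes1, Hes5 and Hey1 and the lowest for Jag1.

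Among the ligands, Dll1 is the Delta ligand carried by newborn neurons, at chromosome 17, 15367354 to 15376872 on the minus strand of GRCm38. Dll1 was at 14.6, 15.7 and 23.4 FPKM in Lhx4-null libraries 1, 2 and 3, against 14.7, 13.8 and 29.6 FPKM in control libraries 1, 2 and 3. Library 3 was the highest in both genotypes and the other libraries of both genotypes lay close together. The means were 17.9 ± 4.77 FPKM in Lhx4-null and 19.4 ± 8.90 FPKM in control retinas (SD, n = 3 each). Its log2 difference was -0.053 (SE 0.30, 95% interval -0.76 to 0.66, limma adjusted p = 0.988). The interval leaves room for a change of either sign.

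Dll4 lies on chromosome 2 at 119325784 to 119335962 on the plus strand and is known both from retinal progenitors and from the tip cells of growing vessels. It was at 2.82, 3.60 and 4.79 FPKM in Lhx4-null libraries, against 2.89, 2.99 and 3.84 FPKM in control libraries. The lowest Lhx4-null library was below every control library and the highest was above every one, so the groups overlapped throughout. With limma, Dll4 had a log2 difference of 0.16 (SE 0.20, 95% interval -0.30 to 0.62, adjusted p = 0.877). Between genotypes the endothelial markers moved in the same direction: 7 of 7 were higher in Lhx4-null means, beside 6700 of all 13175 genes tested. Their median log2 difference was 0.31, with 0 passing the adjusted limma threshold and 1, Kdr, at an unadjusted p under 0.05. Over the library numbers Dll4 rose within each genotype. The endothelial markers summed to 77.9, 69.6 and 61.5 FPKM in Lhx4-null libraries 1, 2 and 3. In control libraries 1, 2 and 3 they summed to 62.2, 52.85 and 52.6 FPKM, nearly level between the last 2. Kdr made up most of each sum. It was at 56.8, 50.9 and 45.5 FPKM in Lhx4-null libraries, against 40.2, 38.8 and 42.3 FPKM in control libraries. None of the 7 endothelial markers was at 0, and their part in the Dll4 values was not tested.

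Jag1, a Jagged ligand known from growing vessels, lies on chromosome 2 at 137081456 to 137116644 on the minus strand with no other annotated gene over it. It was at 4.59, 5.20 and 2.59 FPKM in Lhx4-null libraries, against 6.05, 4.82 and 2.22 FPKM in control libraries. Here library 3 was the lowest of each genotype, the opposite of the Delta ligands. For Jag1 the log2 difference was -0.028 (SE 0.36, 95% interval -0.87 to 0.81, limma adjusted p = 0.997). Its highest library stood 2.72 times above its lowest, the widest span of the 10 members. The ratio of Dll1 to Jag1 FPKM was 3.19, 3.02 and 9.03 in Lhx4-null libraries and 2.42, 2.87 and 13.3 in control libraries. The balance of these ligands thus differed more between library 3 and libraries 1 and 2 than between genotypes.

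Notch1 was the most abundant receptor. It lies on chromosome 2 at 26457903 to 26516663 on the minus strand and encodes the receptor known for holding retinal progenitors in an undifferentiated state. Notch1 was at 25.7, 21.2 and 27.3 FPKM in Lhx4-null libraries, against 19.9, 18.8 and 29.9 FPKM in control libraries. In libraries 1 and 2 the Lhx4-null value was above the control value, and in library 3 it was below. The means were 24.7 ± 3.18 FPKM in Lhx4-null and 22.9 ± 6.11 FPKM in control retinas (SD, n = 3 each), a log2 difference of 0.13 (SE 0.19, 95% interval -0.30 to 0.57, limma adjusted p = 0.898). Leaving out single libraries moved the log2 difference between 0.0094, without control library 2, and 0.34, without control library 3, where the unadjusted limma p was 0.0332 and the adjusted p 0.552. It was 0.049 without control library 1, 0.058 without Lhx4-null library 3 and 0.24 without Lhx4-null library 2.

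Notch2, the receptor on chromosome 3 at 98013527 to 98150361 on the plus strand, had the largest fitted difference of the members. It was at 2.66, 2.12 and 2.58 FPKM in Lhx4-null libraries, against 1.91, 2.02 and 2.20 FPKM in control libraries. The lowest Lhx4-null library lay below the highest control library, and the Lhx4-null value was the higher one at each library number. The log2 difference was 0.21 (SE 0.14, 95% interval -0.12 to 0.54, limma adjusted p = 0.782). Müller glia had 8 of 8 tested markers higher in Lhx4-null means, beside 6700 of all 13175 genes tested. Their median log2 difference was 0.16, with 0 passing the adjusted limma threshold and 0 at an unadjusted p under 0.05. All tested markers were also higher for astrocytes (4 of 4, median 0.22), microglia (4 of 4, 0.31) and endothelium (7 of 7, 0.31). Rod markers (5 of 5, median -0.19) and the 1 tested pigment epithelium marker were lower, and the other marker lists held both signs. The 9 listed Müller markers summed to 852 to 932 FPKM in Lhx4-null and 763 to 929 FPKM in control libraries, and the part of these cells in the Notch2 values was not tested.

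Notch3, known from the mural cells of vessels, lies on chromosome 17 at 32120820 to 32166852 on the minus strand and was the least abundant member. It was at 1.36, 1.13 and 1.03 FPKM in Lhx4-null libraries, against 1.10, 1.14 and 1.14 FPKM in control libraries. Control libraries were nearly level, and the Lhx4-null libraries lay on both sides of them. The log2 difference was 0.037 (SE 0.15, 95% interval -0.32 to 0.39, limma adjusted p = 0.979). The 6 mural markers summed to 9.93 to 14.5 FPKM in Lhx4-null and 5.08 to 13.9 FPKM in control libraries, only 2 of them passed the filter, and Myh11, which defines smooth muscle, was at 0.029 to 0.072 FPKM and 0.011 to 0.031 FPKM. The part of mural cells in the Notch3 values was not tested.

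Of the summed FPKM of Notch1 to Notch4, Notch1 made up 81.1%, 78.2% and 81.9% in Lhx4-null libraries and 74.5%, 76.3% and 84.7% in control libraries. These shares overlapped between genotypes. Notch1 stood 9.66, 9.99 and 10.6 times above Notch2 in Lhx4-null libraries and 10.4, 9.30 and 13.6 times in control libraries.

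Rbpj encodes the DNA-binding protein through which all Notch receptors act, and lies on chromosome 5 at 53466152 to 53657362 on the plus strand. It was at 20.9, 19.8 and 22.4 FPKM in Lhx4-null libraries, against 18.1, 21.3 and 21.1 FPKM in control libraries. It was the steadiest member, its highest library being 1.24 times its lowest. For Rbpj the log2 difference was 0.063 (SE 0.10, 95% interval -0.17 to 0.30, limma adjusted p = 0.911).

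Of the target genes, Hes5 was the most abundant member in all 6 libraries. It encodes a bHLH repressor of progenitors and Müller glia and lies on chromosome 4 at 154960923 to 154962371 on the plus strand. RBPJ is known to recognise a core of TGGGAA, and the sequence before the Hes5 start is shown because 2 such cores, in capitals, stand in it, starting 226 and 82 bases before the start site and the first of them on the opposite strand. The sequence is RefSeq's on GRCm38.p6, chr4:154960673-154960922, plus strand.
Hes5 upstream: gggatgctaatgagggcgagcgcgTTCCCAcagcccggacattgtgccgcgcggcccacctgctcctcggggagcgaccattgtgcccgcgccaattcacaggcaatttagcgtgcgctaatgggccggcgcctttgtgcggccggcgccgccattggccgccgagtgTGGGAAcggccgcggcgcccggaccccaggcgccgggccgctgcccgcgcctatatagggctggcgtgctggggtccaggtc
Windows of 250 bases before to 50 after the start were held for 8 of the 10 members. None was held for the targets Hes1 and Hey1, which were not searched. Among the 8 members searched, only the windows of Hes5 and Rbpj carried TGGGAA on either strand. The first of 2 overlapping Rbpj windows also held 2 matches, at -149 and -65 from its start site. The second held 1, at -205. Of all 32851 such mouse windows 25.6% held at least 1 match and 3.79% held 2 or more, so a match describes the letters and is no evidence of binding.

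Hes5 was at 54.8, 49.5 and 105 FPKM in Lhx4-null libraries, against 49.8, 64.0 and 124 FPKM in control libraries. Library 3 was about 2 times the others in both genotypes, and libraries 1 and 2 of the genotypes overlapped. The means were 69.8 ± 30.7 FPKM in Lhx4-null and 79.2 ± 39.2 FPKM in control retinas (SD, n = 3 each). The log2 difference was -0.16 (SE 0.38, 95% interval -1.05 to 0.74, limma adjusted p = 0.954). The antisense gene Gm20421 overlaps Hes5, and whether the authors' counting used strand is not given in the sources used here, so reads of the 2 genes cannot be told apart here. Other annotated genes overlap Notch1, Notch2, Notch3, Dll1, Dll4 and Rbpj as well.

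Hes1, a bHLH repressor with a similar role, lies on chromosome 16 at 30064384 to 30067796 on the plus strand with no other annotated gene over it. It was at 15.5, 11.8 and 26.0 FPKM in Lhx4-null libraries, against 13.4, 14.5 and 26.3 FPKM in control libraries. Both libraries numbered 3 were nearly level, and the other 4 libraries interleaved. The means were 17.7 ± 7.38 FPKM in Lhx4-null and 18.1 ± 7.17 FPKM in control retinas (SD, n = 3 each), a log2 difference of -0.038 (SE 0.33, 95% interval -0.82 to 0.74, limma adjusted p = 0.994). The ratio of Hes5 to Hes1 FPKM was 3.55, 4.21 and 4.04 in Lhx4-null libraries and 3.71, 4.41 and 4.70 in control libraries, and so it varied less than either gene.

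Hey1, a Hey-family repressor known from vessels and the nervous system, lies on chromosome 3 at 8663359 to 8667256 on the minus strand. It was at 8.83, 9.22 and 11.4 FPKM in Lhx4-null libraries, against 8.81, 9.23 and 10.5 FPKM in control libraries. Libraries 1 and 2 were nearly equal between the genotypes, and library 3 was the highest of each. For Hey1 the log2 difference was 0.041 (SE 0.13, 95% interval -0.26 to 0.34, limma adjusted p = 0.966).

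**Figure D2:**
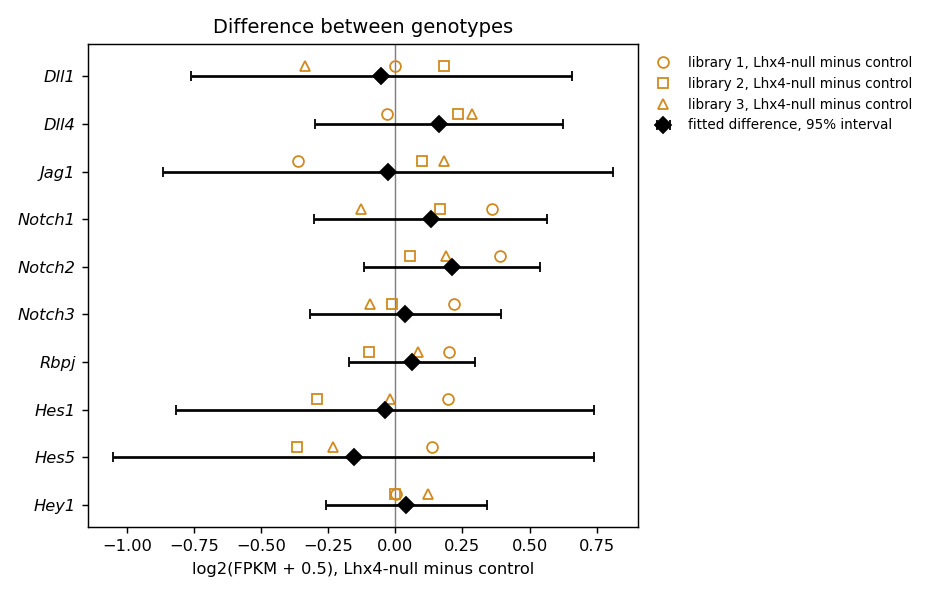
Difference of log2(FPKM + 0.5), Lhx4-null minus control, for the 10 members, with diamonds and bars for the limma estimate and its 95% interval and open symbols for each same-numbered pair of libraries. Every interval spans 0, and the narrowest belongs to Rbpj (-0.17 to 0.30) and the widest to Hes5 (-1.05 to 0.74).

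The order of mean FPKM over the 6 libraries, a level per gene length, was Hes5 (74.5), Notch1 (23.8), Rbpj (20.6), Dll1 (18.6), Hes1 (17.9), Hey1 (9.67), Jag1 (4.24), Dll4 (3.49), Notch2 (2.25) and Notch3 (1.15). Hes5 exceeded Notch1, Hes1 exceeded Hey1, Hey1 exceeded Jag1, Dll4 exceeded Notch2 and Notch2 exceeded Notch3 in all 6 libraries. Notch1 exceeded Rbpj in 5 libraries, Rbpj exceeded Dll1 in 4, Dll1 exceeded Hes1 in 3 and Jag1 exceeded Dll4 in 4, so these neighbours did not separate beyond their spread.

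Averaged over the genotypes, the log2 departure of library 3 from libraries 1 and 2 exceeded the genotype difference in size for every member but Notch2. For Notch2 these were 0.12 and 0.21. Library 3 was above libraries 1 and 2 in both genotypes for 6 of 10 members, Notch1, Dll1, Dll4, Hes1, Hes5 and Hey1, beside 25.9% of all genes tested. It was below them in both for Jag1 alone, beside 25.2% of all genes. Log2 departures of library 3 are averages over the 2 genotypes for each gene, unless a genotype is named. Their median was 0.34 over the members and -0.0020 over all genes. Within Lhx4-null and within control libraries the member medians were 0.273 and 0.271, and those of all genes were 0.034 and -0.034. These values are a description with no test, since 1 library stands at that number in each genotype and the labels do not say what the number marks beyond a biological replicate.

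Hes5 in library 3 was 2.01 times the mean of libraries 1 and 2 in Lhx4-null and 2.17 times in control retinas. Hes1 was 1.91 and 1.89 times, and Dll1 was 1.54 and 2.08 times. Jag1 was 0.529 and 0.409 times. The progenitor markers moved the same way as the targets: 7 of 7 were above in both genotypes, beside 25.9% of all genes. Averaged over the genotypes, their median log2 departure was 1.35, against 1.06 for Hes5. For rod markers 5 of 5 and for bipolar markers 5 of 5 were below in both library 3s, and for endothelial markers 6 of 7 were, beside 25.2% of all genes. The other lists were less uniform. Müller glia had 4 above and 1 below of 8 tested, amacrine cells 2 and 1 of 5, and ganglion cells 1 and 1 of 4. Microglia had 1 and 2 of 4, astrocytes 1 and 0 of 4, mural cells 0 and 1 of 2, and pigment epithelium 0 and 0 of 1. The part of these cell types in the Notch values was not tested.

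**Figure D3:**
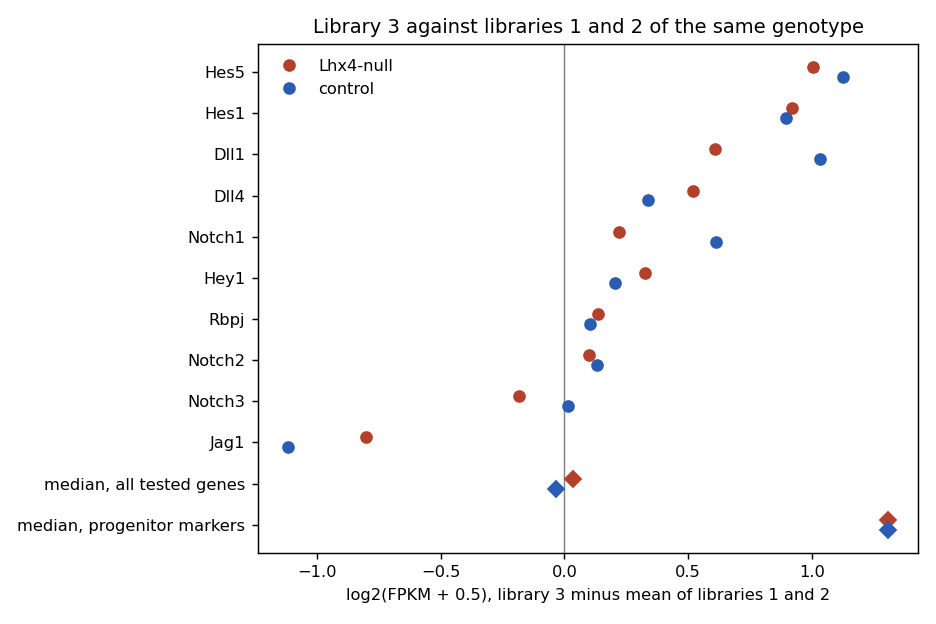
Departure of library 3 from the mean of libraries 1 and 2 of the same genotype on the log2(FPKM + 0.5) scale, for each member and as the median over all tested genes and over 7 progenitor markers. The progenitor median lies farthest right in both genotypes, followed by Hes5 among the members, Jag1 is far to the left in both, and the median of all genes is near 0.

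The genes whose centred pattern over the 6 libraries was most like 3 of the members were found among 11185 genes with a mean of at least 2 FPKM, by the root mean square difference of log2 values. For Notch1 they were Robo2 (0.032), Vangl2 (0.045) and Fam65b (0.056). For Hes1 they were Irx5 (0.076), Rbm24 (0.088) and Heyl (0.088), the last of them a Hey-family gene. For Hes5 they were Cdc20 (0.043), H1fx (0.072) and Mad2l1 (0.074), of which Cdc20 and Mad2l1 encode proteins of the mitotic checkpoint. Cdc20 was at 7.43, 6.31 and 14.8 FPKM in Lhx4-null libraries and 6.44, 8.92 and 16.4 FPKM in control libraries, with library 3 the highest in each genotype as for Hes5.

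A further 63 genes of the pathway were grouped by role, and 59 passed the filter. With limma 0 were called, with or without the block. At an unadjusted p under 0.05, 1 of the 59 was higher and 1 was lower in Lhx4-null retinas, beside 4.09% and 2.72% of all genes, and 27 of the 59 had a fitted difference above 0 and 32 below, with a median of -0.013. All Lhx4-null libraries lay above all control libraries for 2 of the 59, Aph1b and Itch, beside 7.88% of all genes, and below them for 1, Rfng, beside 5.53%. These are smaller shares than over all genes, and the values of the 3 genes are given as a description.

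Aph1b, a subunit of gamma-secretase, was at 6.44, 5.86 and 6.997 FPKM in Lhx4-null libraries, against 4.88, 5.38 and 4.90 FPKM in control libraries. The groups did not overlap, and the log2 difference was 0.32 with an unadjusted limma p of 0.0249 and an adjusted p of 0.689. The other 8 tested receptor cleavage genes had larger p-values, and the median of the 9 was -0.0055. Rfng, a fringe glycosyltransferase that modifies Notch, was at 19.0, 18.9 and 19.0 FPKM in Lhx4-null libraries, against 23.1, 21.4 and 21.4 FPKM in control libraries. Its groups did not overlap either, with a log2 difference of -0.21, an unadjusted limma p of 0.0347 and an adjusted p of 0.701. Itch, a ubiquitin ligase of Notch turnover, was at 21.0, 19.3 and 19.5 FPKM in Lhx4-null libraries, against 16.5, 19.1 and 17.0 FPKM in control libraries. The gap between its groups was narrow, and its adjusted p was 0.749.

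Among the ubiquitin ligases that drive ligand endocytosis, Mib1 averaged 31.5 ± 0.523 FPKM in Lhx4-null and 37.4 ± 6.95 FPKM in control retinas (SD, n = 3 each; log2 difference -0.23, limma adjusted p = 0.764). Of the noncanonical ligands, Dlk1 was at 2.15, 2.31 and 5.38 FPKM in Lhx4-null libraries, against 1.98, 2.71 and 2.11 FPKM in control libraries. A single Lhx4-null library stood above the rest. Tle4, a Groucho-family corepressor of Hes proteins, averaged 12.8 ± 1.32 FPKM in Lhx4-null and 10.3 ± 1.98 FPKM in control retinas (SD, n = 3 each; log2 difference 0.31, limma adjusted p = 0.746), and its groups overlapped. Dner, a neuronal Notch ligand, and the coactivators Maml2 and Maml3 had log2 differences of 0.13, 0.16 and 0.17, and the ligase Mib2 and the Deltex gene Dtx3 had -0.15 and -0.16. Their limma adjusted p-values were between 0.776 and 0.869.

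Of the other Hes and Hey factors, Hes6, Heyl and Hey2 passed the filter, and Hes2, Hes3 and Hes7 averaged under 0.5 FPKM and were not tested. Hes6, a Hes relative of differentiating neurons, was at 128, 129 and 207 FPKM in Lhx4-null libraries, against 123, 141 and 225 FPKM in control libraries. Heyl was at 4.30, 3.59 and 8.12 FPKM in Lhx4-null libraries, against 3.35, 4.25 and 7.66 FPKM in control libraries. Library 3 was the highest in both genotypes for 3 of the 3 tested factors of this list, beside 25.9% of all genes. Over all 59 further pathway genes tested it was the highest in both for 30 and the lowest in both for 8. Their median log2 departure of library 3 was 0.13. Of those not tested, Hes3 was listed at 0 FPKM and Hes7 was at 0.286 FPKM in Lhx4-null library 3, neither of them the highest Lhx4-null value of its gene. In control library 3 Hes3 was at 0.212 FPKM and Hes7 at 0.705 FPKM, each the highest control value of its gene. Hes2 was highest in library 3 of both genotypes, at 0.624 FPKM in Lhx4-null and 0.491 FPKM in control. The median log2 difference between genotypes of the 3 tested factors was 0.014.

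The proneural factors, which Notch signaling opposes, included Atoh7, which had a low level and a wide spread. Atoh7, the factor required for ganglion cells, was listed at 0 FPKM in Lhx4-null library 1 and at 0.453 and 1.87 FPKM in libraries 2 and 3, against 1.20, 0.644 and 6.10 FPKM in control libraries. The Lhx4-null value was the lower one at each number, the groups overlapped, and the log2 difference was -1.17 (SE 0.75, limma adjusted p = 0.772, and 0.249 with the block). It was -0.42 without control library 3, -0.64 without Lhx4-null library 1 and -1.76 without Lhx4-null library 3, and -1.93 with a pseudocount of 0.1 FPKM. Neurod1, a factor of photoreceptors and amacrine cells, was at 334, 333 and 318 FPKM in Lhx4-null libraries, against 333, 402 and 309 FPKM in control libraries. The median log2 difference of the 5 proneural factors was -0.046. Library 3 was the highest in both genotypes for 4 of the 5 and the lowest in both for 1, beside 25.9% and 25.2% of all genes.

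**Figure D4:**
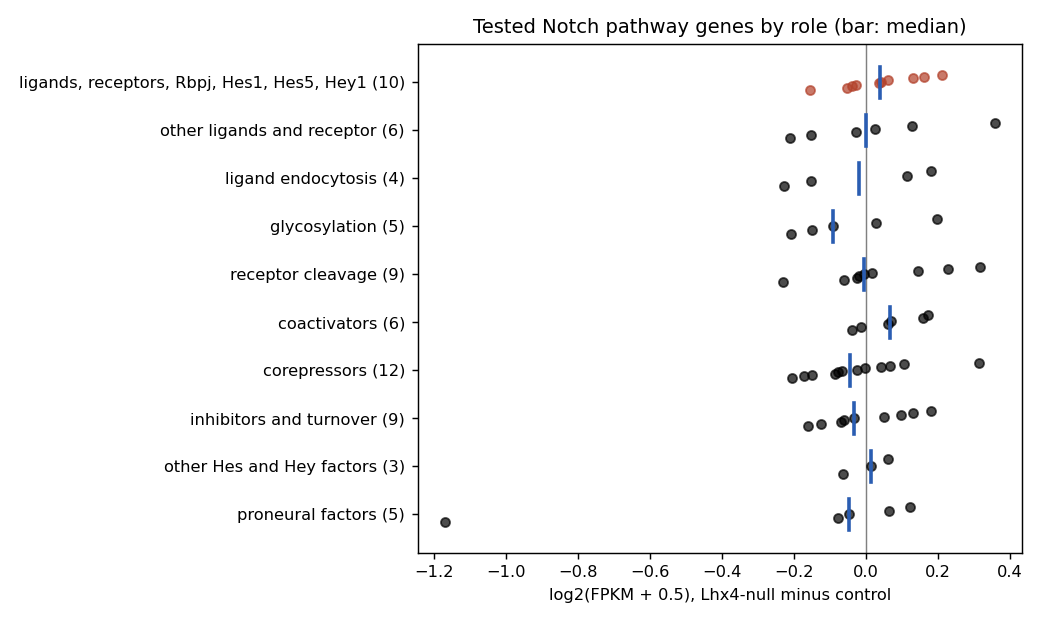
Difference of log2(FPKM + 0.5), Lhx4-null minus control, for each tested gene of the pathway by role, with the number of tested genes in brackets and the median of each role as a bar. The medians lie between -0.091 and 0.066, and the point far to the left is Atoh7 at -1.17.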

How the data were processed

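The deposited values are FPKM per gene. Per the submitters' processing notes, the authors mapped reads with TopHat2 and used Cufflinks on GRCm38; their versions, the annotation and any strand setting were not given in the sources used here. Because these values keep no read counts, FPKM steps were examined: between 0.613% and 4.72% of low genes shared the commonest ratio between libraries, so whole reads were not recovered and no count test was run. Cufflinks divides fragments among overlapping transcripts, so overlapping genes are uncertain. Summed FPKM was 386567 to 429668 per library.

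log2(FPKM + 0.5) of the 13175 rows averaging 0.5 FPKM or more was fitted over the whole table with limma 3.58.1 (R 4.3.3), with a mean-variance trend, two-sided, and Benjamini-Hochberg adjustment over all tested rows. Folds on this scale understate changes of low genes. The fit was tested on simulated data. After removal of group means, same-numbered libraries correlated across genes at r = 0.39, 0.26 and 0.67 for numbers 1, 2 and 3. Lhx4-null 1 and 2 both correlated best with control 1 (0.39 and 0.38), so pairing of numbers 1 and 2 was not shown. The number was left out of the main fit and used as a block in an alternative only. Positions came from GENCODE M21 on GRCm38 and promoter windows from RefSeq.

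The members and lists were chosen with earlier results of these data known. Genes were named by rule: Lhx4, the 10 members, other pathway genes with an unadjusted p under 0.05 or otherwise the 2 smallest p of their list, and the 3 patterns most like Notch1, Hes1 and Hes5; a gene that this rule names is not reported here. Alternatives were other pseudocounts, filters and scalings, no trend, the block, and libraries left out.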

Additional observations from a re-analysis of the deposited data

How the results depend on the processing

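No member was called under any of the 15 alternatives, and 18 of 149 member values under them turned sign; Notch3 gave no value with the filter at 2 FPKM. Over all genes, 2 calls became 12 with the replicate block and 11 with both libraries numbered 3 left out; leaving out single libraries gave 0 to 5 calls. The 0 came without Lhx4-null library 2, where 825 genes had an unadjusted limma p under 0.05. The block changed no call for any pathway gene. The median departure of library 3 over the members was 0.35 with a pseudocount of 0.1, 0.32 with 1, 0.34 after rescaling to the 75th percentile and 0.35 after quantile normalization.

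Log2 differences turned sign for Notch3 (-0.044) and Neurod1 (0.036) with quantile normalization, and for Dll1 (0.088) and Dlk1 (-0.048) with both libraries numbered 3 left out. Leaving out single libraries turned the sign of 8 of 10 members, not of Notch1 or Notch2. The ranges were -0.041 to 0.097 for Notch3, -0.26 to 0.29 for Dll1, -0.011 to 0.33 for Dll4, -0.40 to 0.24 for Jag1, -0.34 to 0.26 for Hes1, -0.49 to 0.22 for Hes5, -0.067 to 0.11 for Hey1 and -0.011 to 0.10 for Rbpj. Among the others they were -0.0100 to 0.56 for Dlk1, -0.29 to 0.19 for Hes6, -0.26 to 0.37 for Heyl and -0.16 to 0.032 for Neurod1. The cause was not tested. The paper gives a range of sequencing depths over its libraries, and the depth of each library here is unknown. With 3 mice a group, 95% intervals of -1.05 to 0.74 for Hes5 and -0.87 to 0.81 for Jag1 limit what the comparison can show.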
